A study of Mus musculus with 60 samples.

Results

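The 10 genes described here encode receptors that myostatin shares with the activins (Acvr2a, Acvr2b, Acvr1b and Tgfbr1), secreted proteins that hold these ligands back (Fst and Fstl3), the subunits of the activins and inhibins (Inha, Inhba and Inhbb), and Gdf11, the closest relative of myostatin. They were chosen by name, with earlier results of these data known. Every probe set, a group of short oligonucleotides that reports on a transcript, was taken if its only gene symbol in the platform annotation was one of the 10, which gave 19 probe sets of 45037 and 10 genes of 18193. All 19 entered each test and none was removed for a low value. A further probe set names Acvr2a together with Orc4 and was not read as Acvr2a.

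Wild-type (WT) C57BL/6J mice were compared with MSTN-null mice of the same strain, which lack functional myostatin in every tissue, at 3 time points. The tissue was the whole embryo at 13.5 d.p.c. (days post coitum), the hindquarters at 17.5 d.p.c. and the pectoralis muscle at d35. Each sample was a pool of RNA from 3 animals, with 5 pools (15 animals) per genotype and time point and 30 pools in all, and each pool was hybridized to both Affymetrix chips MOE430A and MOE430B. Because animals were pooled, the spread given here is that between pools. The level of a probe set is its log2 intensity after the authors' normalization (RMA), and a difference is WT minus MSTN-null on that log2 scale, so that a negative difference means a higher level in MSTN-null. Mstn itself is named by no probe set and was not analysed here, so the labels of the genotypes could not be checked at the targeted gene.

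Myostatin is a secreted ligand of the TGF-beta family that limits skeletal muscle growth. Like the activins, it binds a type II receptor, ACVR2B or ACVR2A, which then activates a type I receptor, ACVR1B (ALK4) or TGFBR1 (ALK5), and the type I receptor phosphorylates SMAD2 and SMAD3. Follistatin (Fst) and follistatin-like 3 (Fstl3) bind activins, myostatin and GDF11 outside the cell and keep them from these receptors, while inhibin, an alpha subunit (Inha) joined to an activin beta subunit (Inhba or Inhbb), opposes activin. The comparison asks whether transcripts of these partners differ when the ligand is absent.

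The tissues differ between time points, as do the medians of the arrays: 8.05 to 8.09 at 13.5 d.p.c., 7.78 to 7.86 at 17.5 d.p.c. and 6.88 to 6.94 at d35 on chip A. Genotypes were therefore compared within a time point only. Whole embryos and hindquarters hold many tissues besides muscle. In the d35 pectoralis, the 10 skeletal muscle genes lay from percentile 78.1 (Myog) to 100 (Acta1 and Ckm) of their chip. The mean level of 8 neuronal markers was 4.85 to 5.01 over the pools. Single neuronal markers lay from percentile 1.19 (Snap25) to 80 (Syt1) of their chip. In these bulk samples, fewer cells of a type and less RNA per cell cannot be told apart. At 17.5 d.p.c. the chip B array of WT pool 1 correlated less well with its group (mean r 0.948) than any other array (0.980 or more). The mean of 8 liver markers at that age was 8.35 in MSTN-null pool 5, 11.64 to 12.66 in the other MSTN-null pools and 11.58 to 13.39 in the WT pools. There the difference was positive for 8 of 8 liver and 7 of 8 neuronal genes. It was negative for 10 of 10 skeletal muscle and 8 of 8 adipocyte genes. In these lists 0 genes were called (limma; 1, 0, 1 and 0 had an unadjusted p below 0.05). Each of the other marker lists had both signs. The part of these leanings in the genotype differences was not tested.

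In pectoralis muscle at d35, MSTN-null mice read higher at 1 probe set of each type II receptor and at that of the inhibin alpha subunit. They read lower at 1 follistatin probe set. The higher levels in MSTN-null were 1.32-fold for Inha, 1.25-fold for Acvr2a and 1.16-fold for Acvr2b, and the level of Fst was 1.31-fold higher in WT. These 4 of the 19 probe sets were called at a Storey q below 0.05 (limma), 3 lower and 1 higher in WT, where 4.58% of all probe sets were called at this age (2.08% lower and 2.5% higher in WT). The genotypes did not overlap, with every pool of a genotype above every pool of the other, for the same 4 probe sets, against 5.25% of all. The call at Acvr2b held in 8 of 18 alternative analyses. The second probe sets of Acvr2a (q = 0.125, limma) and Fst (q = 0.0681, limma) were not called. An unadjusted p below 0.05 was found for 10 of the 19 (52.6%) and for 17.9% of all probe sets. The difference was negative for 16 of the 19 and for 56% of all, the median difference was -0.070 against -0.014 over all probe sets, and the median size of the difference was 0.143 against 0.066.

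**Figure D1:**
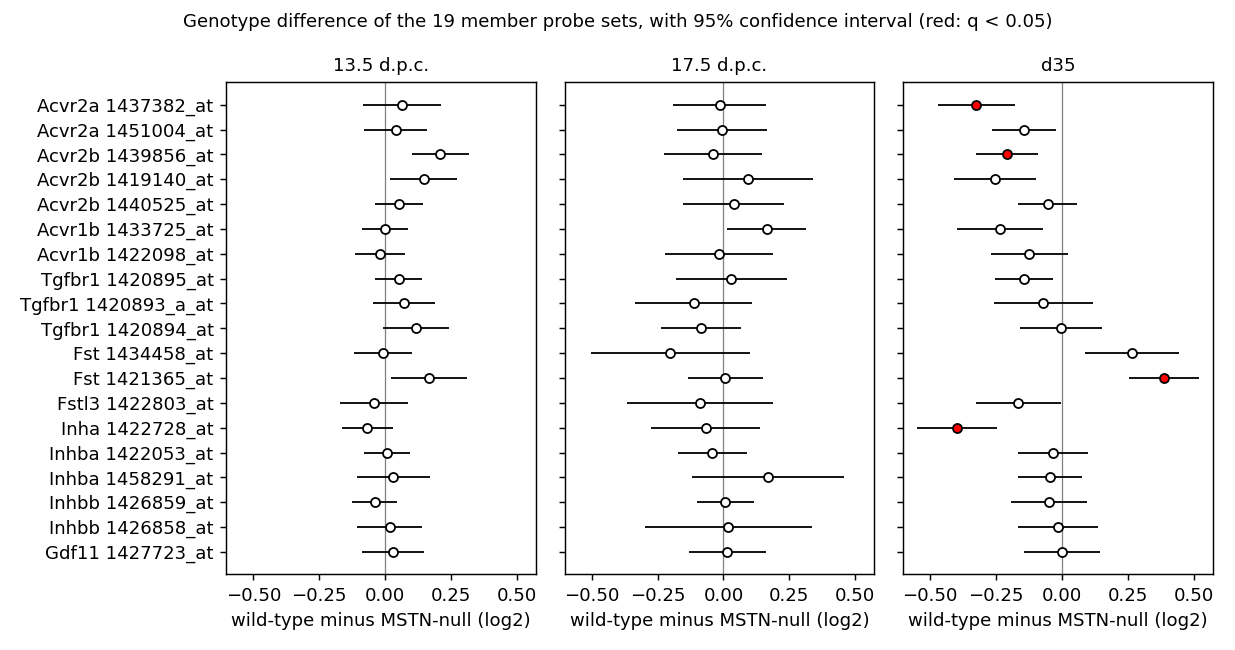
Difference between WT and MSTN-null on the log2 scale for the 19 probe sets at each time point, with 95% confidence intervals from limma; probe sets with a q below 0.05 are red. The 4 red points are all at d35, with Fst to the right of 0 and Acvr2a, Acvr2b and Inha to the left.

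The DNA just upstream of the genes higher in MSTN-null is shown because SMAD3, which these type I receptors phosphorylate, binds DNA with the core CAGAC. Each run is the 250 bases before the annotated RefSeq start on mouse build GRCm38.p6, 5′ to 3′ on the plus strand of the gene, with the letters GTCTG, which are CAGAC read on the other strand, in capitals.
Acvr2a, chr2:48813859-48814108: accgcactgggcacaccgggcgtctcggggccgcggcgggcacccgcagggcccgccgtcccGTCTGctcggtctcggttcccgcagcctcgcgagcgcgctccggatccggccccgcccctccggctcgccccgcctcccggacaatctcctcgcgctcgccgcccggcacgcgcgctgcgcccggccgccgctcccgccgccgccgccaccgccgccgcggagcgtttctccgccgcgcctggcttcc
Acvr2b, chr9:119401928-119402177: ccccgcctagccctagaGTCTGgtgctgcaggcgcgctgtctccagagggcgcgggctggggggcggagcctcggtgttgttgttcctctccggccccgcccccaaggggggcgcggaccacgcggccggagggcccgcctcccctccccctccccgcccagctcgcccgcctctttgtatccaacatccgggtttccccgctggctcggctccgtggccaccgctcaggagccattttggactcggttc
Inha, chr1:75507359-75507608: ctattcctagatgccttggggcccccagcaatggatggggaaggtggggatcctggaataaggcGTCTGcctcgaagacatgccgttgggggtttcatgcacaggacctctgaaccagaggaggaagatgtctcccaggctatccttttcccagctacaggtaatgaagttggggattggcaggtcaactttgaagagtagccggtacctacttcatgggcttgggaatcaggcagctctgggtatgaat
The match lies 188 bases before the start of Acvr2a, 233 before that of Acvr2b and 186 before that of Inha. RefSeq promoter windows were matched for 9 of the 10 genes (all but Fst), 10 windows in all, and CAGAC or GTCTG was found in 5 of them, including a window of Tgfbr1 and that of Fstl3. Of 32851 mouse promoter windows of the same length, 42.2% hold it on either strand, so a match is common. The Acvr2a and Acvr2b windows are rich in G and C (82.0% and 72.8%, where the median window has 52.4%), and that of Inha is not (53.6%). A match is a description of the letters and not a measured binding site.

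Acvr2a encodes the type II receptor ACVR2A. Its brighter probe set, 1437382_at, read 8.10, 8.09, 8.16, 8.33 and 8.09 in MSTN-null pools 1 to 5 at d35. The WT pools read 7.97, 7.69, 7.88, 7.71 and 7.90. All MSTN-null pools were above all WT pools, and the nearest pools of the genotypes were 0.13 apart. The means were 8.15 ± 0.10 in MSTN-null and 7.83 ± 0.12 in WT (SD, n = 5 pools each), a difference of -0.32 (SE 0.068, q = 0.0138, limma) or 1.25-fold (95% confidence interval 1.13 to 1.39) in favour of MSTN-null. The dimmer probe set of the gene, 1451004_at, had a difference of -0.14 (SE 0.056, q = 0.125, limma), of the same sign but not called. At 13.5 d.p.c. Acvr2a read 9.38 ± 0.09 in MSTN-null and 9.44 ± 0.17 in WT, and at 17.5 d.p.c. 8.87 ± 0.10 and 8.85 ± 0.16. The genotypes overlapped at both embryonic ages, with differences of 0.065 (SE 0.070) and -0.015 (SE 0.080).

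Acvr2b encodes ACVR2B, the type II receptor that myostatin binds most tightly. At d35 the probe set 1439856_at read 8.03, 8.26, 8.09, 8.12 and 8.05 in the MSTN-null pools and 7.84, 7.97, 7.86, 7.88 and 7.97 in the WT pools. The genotypes did not overlap, and the lowest MSTN-null pool was 0.06 above the highest WT pool. The difference was -0.21 (SE 0.055, q = 0.0381, limma), or 1.16-fold (1.06 to 1.25) higher in MSTN-null. This call was lost when any of 6 pools was left out (WT 1, 3 or 4, or MSTN-null 2, 3 or 4), with q from 0.0617 to 0.113. A second probe set, 1419140_at, read 7.75, 7.89, 8.00, 8.08 and 7.94 in MSTN-null and 7.62, 7.49, 7.80, 7.70 and 7.78 in WT. There the genotypes overlapped at MSTN-null pool 1, and the difference of -0.25 (SE 0.073) just missed the threshold (q = 0.0517, limma). Without MSTN-null pool 1 its q was 0.0349. The dimmest of the 3 probe sets, 1440525_at, differed by -0.054 (SE 0.052). A mean over the 3 probe sets gave a difference of -0.17 (SE 0.040, q = 0.0192, limma over genes).

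The sign at Acvr2b was the opposite one in the whole embryos of 13.5 d.p.c. The probe set 1439856_at read 9.04, 9.20, 9.08, 9.12 and 8.96 in MSTN-null and 9.40, 9.26, 9.30, 9.29 and 9.19 in WT. Only WT pool 5 fell below an MSTN-null pool, and the difference of 0.21 (SE 0.050) was the nearest to a call among the 19 probe sets at this age (q = 0.0694, limma). Without WT pool 5 its q was 0.0380. The probe set 1419140_at had a difference of 0.15 (SE 0.060, q = 0.280) and 1440525_at one of 0.052 (SE 0.043, q = 0.522). The change in the genotype difference of 1439856_at from 13.5 d.p.c. to d35 was -0.42 (SE 0.093) and passed its own test (interaction q = 0.0179, limma over 30 pools, where 1.17% of probe sets passed). It passed under all 36 alternatives tried. The time points differ in tissue, so this is a difference between whole embryos and pectoralis muscle as much as between ages. Beside it stands that the actin 3′ minus 5′ control on chip B, a sign of RNA integrity, also separated the genotypes at 13.5 d.p.c. (0.160 to 0.234 in WT and 0.290 to 0.318 in MSTN-null). The Gapdh control there overlapped (0.226 to 0.267 and 0.235 to 0.298). At d35 the actin ranges overlapped on chip A (0.134 to 0.579 and 0.0599 to 0.211) and on chip B (0.208 to 0.584 and 0.155 to 0.278). At 17.5 d.p.c. Gapdh on chip B separated the genotypes (-0.0011 to 0.0353 and -0.0795 to -0.005). The part of RNA integrity in the result was not tested. Marker lists at 13.5 d.p.c. also leaned one way, with overlapping list means. The difference was negative for 8 of 8 liver genes (10.70 to 11.41 in WT pools and 10.84 to 11.38 in MSTN-null pools), for 7 of 7 cartilage and bone genes (8.69 to 9.13 and 8.86 to 9.18) and for 8 of 10 skeletal muscle genes (8.98 to 9.15 and 9.04 to 9.29), with 0 called in these 3 lists (limma; 1, 0 and 2 had an unadjusted p below 0.05). It was negative too for 4 of 4 erythroid genes (9.48 to 9.65 and 9.56 to 9.75) and 7 of 8 adipocyte genes (6.61 to 6.74 and 6.60 to 6.83). In these lists 0 were called (limma, with 1 and 0 at an unadjusted p below 0.05). It was positive for 6 of 8 neuronal genes, 1 of them called (9.95 to 10.09 and 9.80 to 9.98). Their part was not tested either. At 17.5 d.p.c. the difference at 1439856_at was -0.039 (SE 0.085).

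**Figure D2:**
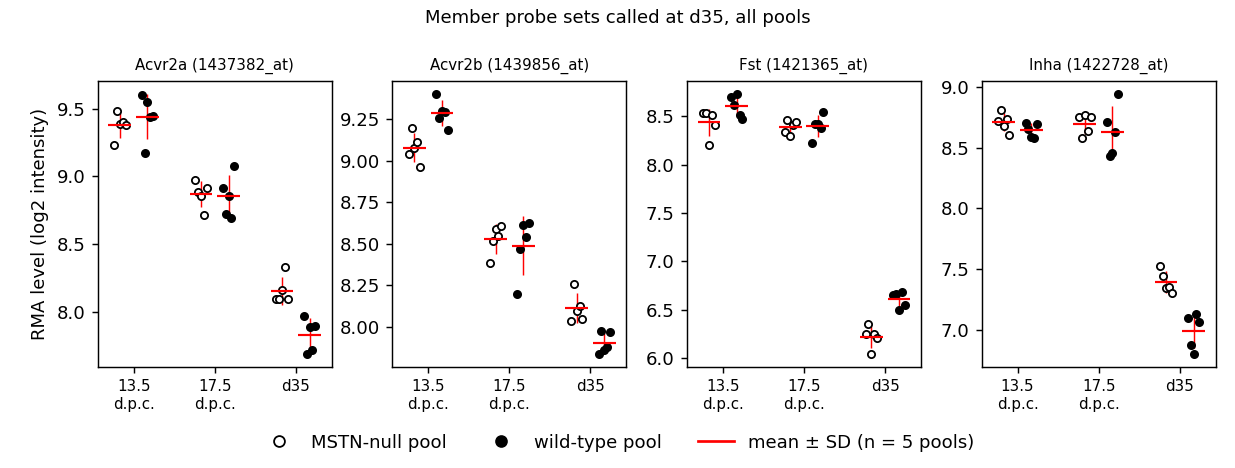
Level (RMA log2 intensity) of the 4 probe sets called at d35 in all 30 pools, by time point; open circles are MSTN-null pools, filled circles WT pools, and red lines the mean ± SD of 5 pools. At d35 the open and filled circles are apart in all 4 panels, with Fst the one in which the filled circles lie higher.

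The type I receptors passed the test at none of the time points, though their d35 differences had the sign of the type II receptors. Acvr1b, which encodes ALK4, read 8.39, 8.81, 8.80, 8.65 and 8.60 at its brighter probe set, 1433725_at, in the d35 MSTN-null pools and 8.40, 8.44, 8.32, 8.53 and 8.39 in the WT pools. Of the MSTN-null pools, 4 were above all WT pools and pool 1 lay among them. The difference was -0.24 (SE 0.076, q = 0.0747, limma), and without MSTN-null pool 1 it was called (q = 0.0223). The other probe set, 1422098_at, had a difference of -0.12 (SE 0.067, q = 0.234). In hindquarters at 17.5 d.p.c. the sign was reversed: 1433725_at read 8.92, 8.96, 8.93, 8.73 and 8.96 in MSTN-null and 9.26, 9.04, 9.03, 9.01 and 9.00 in WT. This was the only one of the 19 probe sets without overlap at this age, where 0.535% of all probe sets had none, and the difference of 0.16 (SE 0.068, unadjusted p = 0.0345, limma) had a q of 1. The lowest MSTN-null value came from pool 4 and the highest WT value from pool 1. Between 17.5 d.p.c. and d35 the genotype difference changed by -0.40 (SE 0.091, interaction q = 0.0264, limma), as it did for 0.715% of all probe sets. That call held in 33 of 36 alternatives and was lost without d35 MSTN-null pool 2 or 3 or WT pool 3, with a q of up to 0.0674. At 13.5 d.p.c. Acvr1b read 9.69 in both genotypes (difference 0.00032, SE 0.041).

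Tgfbr1 encodes ALK5, which also serves TGF-beta itself. Its brightest probe set, 1420895_at, read 7.82, 7.81, 7.86, 7.93 and 7.93 in MSTN-null and 7.76, 7.73, 7.65, 7.67 and 7.84 in WT at d35. The highest WT pool lay inside the MSTN-null range, and the difference was -0.14 (SE 0.051, q = 0.0986, limma). The other probe sets, 1420893_a_at (difference -0.070, SE 0.087) and 1420894_at (-0.0042, SE 0.073), were dim, at 5.04 to 5.11 and 4.13 on average. At 13.5 d.p.c. all 3 had positive differences (0.052, 0.072 and 0.12), and at 17.5 d.p.c. they were 0.029, -0.11 and -0.086, none called.

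Follistatin was the one gene of the 10 that was called lower in MSTN-null muscle. Its probe set 1421365_at read 6.25, 6.35, 6.05, 6.25 and 6.21 in the d35 MSTN-null pools and 6.65, 6.66, 6.50, 6.69 and 6.54 in the WT pools. The genotypes did not overlap, the lowest WT pool lying 0.15 above the highest MSTN-null pool. The difference was 0.39 (SE 0.062, q = 0.00363, limma), or 1.31-fold (1.19 to 1.43) higher in WT. The brighter probe set on the other chip, 1434458_at, read 6.63, 6.51, 6.60, 6.96 and 6.59 in MSTN-null and 6.87, 6.78, 7.10, 6.92 and 6.95 in WT. Here MSTN-null pool 4 lay among the WT pools and the other 4 lay below them. The difference of 0.27 (SE 0.083) was not called (q = 0.0681, limma), and it was without that pool (q = 0.0138). The mean of both probe sets differed by 0.33 (SE 0.050, q = 0.00276). Both levels are modest: the 27 bacterial control probe sets of chip A, made for bacterial genes that mice lack, had a median of 3.97 and a maximum of 6.93 at d35, and those of chip B, which holds 1434458_at, a median of 4.17 and a maximum of 6.73.

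In embryos Fst was brighter, at 8.44 to 8.76 on average at 13.5 d.p.c. and 8.33 to 8.53 at 17.5 d.p.c. over both probe sets and genotypes. At 13.5 d.p.c. 1421365_at had a difference of 0.17 (SE 0.067, unadjusted p = 0.0257, q = 0.276, limma) and 1434458_at one of -0.0078 (SE 0.051). At 17.5 d.p.c. the differences were 0.0071 (SE 0.064) and -0.20 (SE 0.14), the latter with WT pool 1 at 7.75 and the other WT pools at 8.38 to 8.61. The change of the 1421365_at difference from 17.5 d.p.c. to d35 was 0.38 (SE 0.096, interaction q = 0.0478, limma), a call that held in 10 of 36 alternatives.

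Fstl3, the other binding protein, has 1 probe set. It read 7.05, 6.89, 7.00, 6.79 and 6.81 in MSTN-null and 6.83, 6.55, 6.64, 6.91 and 6.79 in WT at d35. The genotypes overlapped, and the difference of -0.17 (SE 0.075, q = 0.171, limma) was opposite in sign to that of Fst. At 17.5 d.p.c. MSTN-null pool 4 stood at 8.20 and all other pools of both genotypes at 7.45 to 7.82, and the difference was -0.091 (SE 0.13).

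Inha, the inhibin alpha subunit, had the largest difference in size of the 4 called at d35. The MSTN-null pools read 7.53, 7.44, 7.34, 7.35 and 7.30, and the WT pools 7.10, 6.88, 6.80, 7.13 and 7.06. Every MSTN-null pool was above every WT pool by at least 0.17. The difference was -0.40 (SE 0.071, q = 0.00643, limma), or 1.32-fold (1.18 to 1.46) higher in MSTN-null. It rests on 1 probe set, the only one of the gene. The WT level was modest, at 7.00 on average, where the bacterial controls of chip A had a median of 3.97 and a maximum of 6.93 at d35. The means at 13.5 d.p.c. were 8.71 ± 0.08 in MSTN-null and 8.64 ± 0.06 in WT, and at 17.5 d.p.c. 8.70 ± 0.09 and 8.63 ± 0.21. The embryonic differences, -0.068 (SE 0.045) and -0.067 (SE 0.094), had the same sign as that at d35 and were not called. Inha and Inhbb lie on chromosome 1 with Mstn, with 169 and 351 measured genes between them and Mstn, and the part of that linkage in the difference at Inha was not tested.

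The beta subunits, which make the activins, did not pass the test at any time point. Inhba, whose dimer is activin A, read 7.53, 7.43, 7.56, 7.31 and 7.31 in MSTN-null and 7.47, 7.41, 7.30, 7.36 and 7.43 in WT at 1422053_at. Inhbb, whose dimer is activin B, read 7.89, 7.60, 7.70, 7.57 and 7.68 in MSTN-null and 7.64, 7.54, 7.56, 7.76 and 7.69 in WT at 1426859_at. The ranges of the genotypes overlapped for each gene, and the highest pool was an MSTN-null pool for both. For the readings of these probe sets, the 95% confidence intervals of the d35 differences exclude differences of the size seen at Acvr2b (-0.21) and Inha (-0.40). They were -0.165 to 0.098 for Inhba and -0.193 to 0.096 for Inhbb. A change in the transcripts could be larger than the readings show. The second probe sets of both genes gave -0.045 (SE 0.056) and -0.014 (SE 0.070), that of Inhbb being dim, at percentile 13.3 of its chip.

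Gdf11, which binds the same receptors as myostatin, did not differ detectably. At d35 it read 6.83, 6.59, 6.54, 6.64 and 6.73 in MSTN-null and 6.60, 6.54, 6.74, 6.81 and 6.65 in WT. The difference was 0.0010 (SE 0.067, 95% confidence interval -0.144 to 0.146, q = 0.640, limma). For the reading of this probe set, that bounds a change in either direction at about 1.11-fold. Its level was modest, at 6.67 on average in each genotype, where the bacterial controls of chip A had a median of 3.97 and a maximum of 6.93. A change in the transcript could be larger than its reading shows. It was 0.030 (SE 0.055) at 13.5 d.p.c. and 0.015 (SE 0.066) at 17.5 d.p.c.

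**Figure D3:**
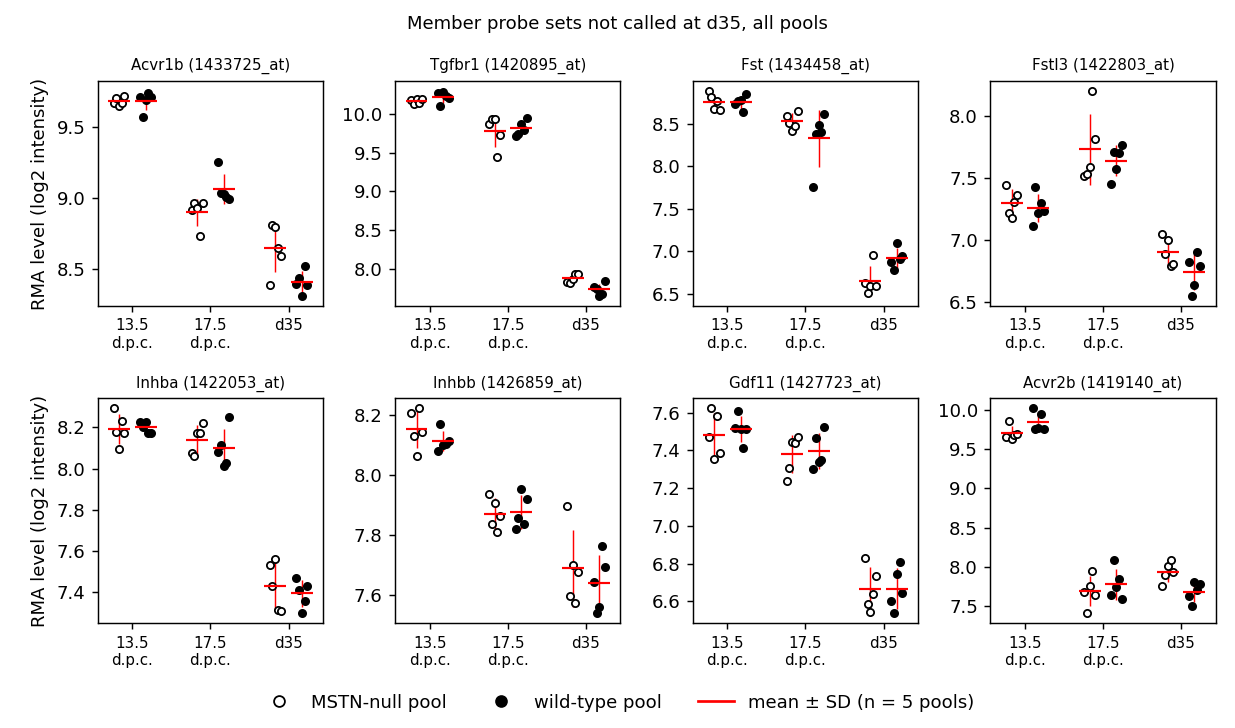
Level (RMA log2 intensity) in all 30 pools of the brightest probe set of the genes not called at that probe set, and of a second Acvr2b probe set; symbols as above, with the mean ± SD of 5 pools in red and a separate vertical scale in each panel. At d35 the Acvr1b, Tgfbr1, Fstl3 and second Acvr2b panels have higher means in MSTN-null with overlapping pools, Fst has a higher mean in WT, and Inhba, Inhbb and Gdf11 overlap throughout.

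In the embryos no member passed the test. At 13.5 d.p.c. 0 of 19 were called and 0 were without overlap, against 0.54% and 2.4% of all probe sets, and 3 (15.8%) had an unadjusted p below 0.05, against 11.3% of all. The differences ran from -0.068 to 0.21, with 14 positive and 5 negative. At 17.5 d.p.c. 0 of 19 were called, as was 0% of all probe sets, and 1 (5.26%) had an unadjusted p below 0.05, against 2.43% of all. The widest confidence interval there reached 0.32 on either side of the difference, against 0.15 at 13.5 d.p.c. and 0.19 at d35. A difference of the d35 size could therefore have been missed for some probe sets. A test of whether the genotype difference varies among the 3 time points called 2 of 19, Acvr2b 1439856_at (q = 0.0377) and Acvr1b 1433725_at (q = 0.0449), and 1.11% of all probe sets (limma). Of 36 alternatives, 20 called the former and 14 the latter. The genotype difference changed between the embryonic ages for 0 of 19 and 0% of all (limma; 1 of the 19 had an unadjusted p below 0.05, and 0 passed with Benjamini-Hochberg adjustment).

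Relative to the median of its array, which removes the shift between time points but not the difference of tissue, the brightest probe set of most genes stood above the median at each age. Acvr2b lay 2.12 above the median at 13.5 d.p.c., 1.61 above at 17.5 d.p.c. and 1.83 above at d35. The brightest probe sets of Acvr2b and Fst are on chip B, whose array medians were lower than those of chip A. On chip A, Acvr2b 1419140_at lay at 1.72, -0.095 and 0.91, and Fst 1421365_at at 0.46, 0.57 and -0.48. Acvr2a lay 1.34, 1.04 and 1.09 above and Acvr1b 1.62, 1.16 and 1.63. For Tgfbr1, Fst and Inha the d35 pectoralis stood lowest: Tgfbr1 was at 2.14, 1.98 and 0.90, Fst at 1.69, 1.53 and 0.62, and Inha at 0.61, 0.84 and 0.30. Inhbb was the reverse, at 0.068, 0.049 and 0.77, and Inhba went from 0.13 to 0.29 and 0.51. Fstl3 (-0.78, -0.14 and -0.072) and Gdf11 (-0.57, -0.44 and -0.23) lay below the array median at each age. These levels mix both genotypes and were not tested, since each age is another tissue.

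Other genes of the pathway were read from 5 lists of ligands, receptors, binding proteins and proteases, Smads with their regulators, and target genes, of which 60 of 63 genes were measured, each by its brightest probe set. At d35, 4 were called higher and 1 was called lower in WT, 5 of 60 where 4.58% of all probe sets were called. An unadjusted p below 0.05 was found for 12 of the 60, against 17.9% of all. Skil (SnoN) and Smad7, both feedback inhibitors of Smad signalling whose transcription TGF-beta signals raise, read 8.94 against 8.58 in WT and MSTN-null (difference 0.35, SE 0.070, q = 0.0109, limma) and 7.41 against 7.25 (0.16, SE 0.044, q = 0.0427). Tgfbr3, betaglycan, a co-receptor that presents TGF-beta2 and lets inhibin bind type II receptors, was higher in WT by 0.31 (SE 0.078, q = 0.0330), and Id3, a target of BMP signalling, by 0.30 (SE 0.080, q = 0.0430). Tgfb2, the ligand TGF-beta2, was lower in WT, at 7.88, 7.61, 7.69, 7.79 and 7.80 against 8.20, 8.41, 8.06, 7.96 and 8.18 in MSTN-null (-0.41, SE 0.079, q = 0.00994). Pmepa1 and Tgfbi, further targets of TGF-beta signals, had differences of 0.34 (q = 0.0662) and 0.39 (q = 0.0543) and were not called. The remaining genes of the target list were not called either. Their differences were 0.22 (SE 0.11) for Id2, 0.18 (SE 0.13) for Id1, 0.022 (SE 0.13) for Cdkn1a and -0.12 (SE 0.17) for Ccn2. The calls of Skil and Tgfb2 held when each pool was left out in turn, whereas those of Tgfbr3 (6 pools, q up to 0.104), Id3 (7 pools, up to 0.125) and Smad7 (9 pools, up to 0.123) each depended on single pools.

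By list at d35, 1 of 11 receptors, 2 of 15 Smads and regulators and 1 of 7 targets were called higher in WT, 1 of 12 ligands was called lower, and 0 of 15 binding proteins and proteases were called (limma; 3 had an unadjusted p below 0.05). Smad2, Smad3 and Smad4, which carry the signal to the nucleus, had differences of 0.10 (SE 0.069), 0.027 (SE 0.075) and -0.046 (SE 0.062). The other type I receptors of the family had differences of both signs, none called: Bmpr1a -0.18 (SE 0.063), Bmpr1b -0.12 (SE 0.069), Acvr1 0.15 (SE 0.091), Acvr1c 0.11 (SE 0.048) and Acvrl1 0.043 (SE 0.057). Wfikkn1 and Wfikkn2, which bind myostatin and GDF11, differed by -0.10 (SE 0.068) and -0.064 (SE 0.073). The median over the 60 genes was 0.033, with 38 positive and 22 negative, where the median of all probe sets was -0.014. At 13.5 d.p.c. Pmepa1 (0.34, SE 0.065, q = 0.0288) and Tgfb2 (0.29, SE 0.061, q = 0.0400) were called higher in WT, each losing its call without some single pools (7 of 10 for Pmepa1, 9 of 10 for Tgfb2), and 0 were called lower. Of all probe sets 0.513% were called higher and 0.0266% lower in WT at this age, so nearly all calls there have that direction. Tgfb2 had the signs of Acvr2b 1439856_at, higher in WT embryos and lower in WT muscle. At 17.5 d.p.c. 0 of 60 were called (limma), and 0 had an unadjusted p below 0.05.

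**Figure D4:**
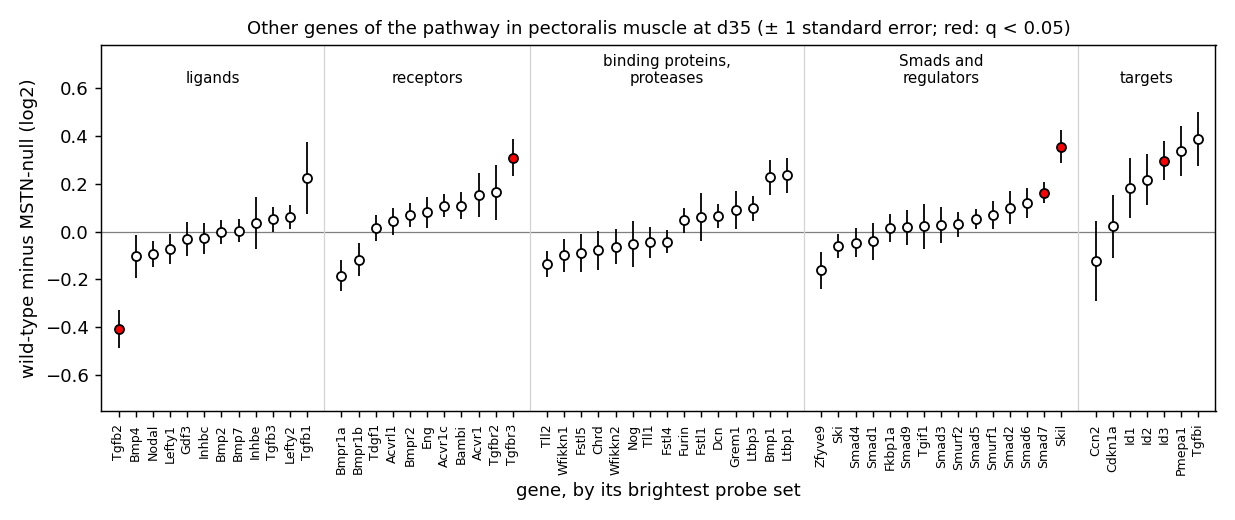
Difference between WT and MSTN-null at d35 (log2 scale, ± 1 standard error) for the 60 other pathway genes, each by its brightest probe set and grouped by role; red points have a q below 0.05. Skil, Tgfbr3, Id3 and Smad7 are the red points above 0 and Tgfb2 the red point below it.

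Markers of other cell types and of fibre type moved with genotype in the same d35 muscles. All 8 slow fibre genes were called higher in WT (mean level of the list 10.58 to 11.20 in WT pools and 8.48 to 9.36 in MSTN-null pools). All 8 adipocyte genes had a positive difference and 5 were called, with list means of 9.82 to 10.15 in WT and 9.05 to 9.85 in MSTN-null. Of 8 fibroblast genes 7 had a positive difference and 0 were called (limma, 2 at an unadjusted p below 0.05; list means 9.86 to 10.28 and 9.84 to 10.13), and of 10 general skeletal muscle genes 9 had a negative one, with 2 called lower and 1 higher (12.06 to 12.25 and 12.18 to 12.37). Gonadal markers, tested because inhibin is best known from the gonads, overlapped (5.66 to 5.82 and 5.75 to 5.84), with 0 of 8 called (limma; 1 at an unadjusted p below 0.05). The part of fibre type and fat in the differences at Acvr2a, Acvr2b, Inha and Fst was not tested. WT pools 2 and 3 had the highest adipocyte levels. Without them Fst and Inha remained called, and Acvr2a (q = 0.0777) and Acvr2b (q = 0.137) did not (limma). The differences at Acvr2a and Acvr2b were then -0.30 and -0.22, against -0.32 and -0.21 with all pools. Fewer WT pools also make a call harder to reach, so this does not test the part of fat.

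The genes whose pattern over the 30 pools was most like that of each member, after the mean of each time point was subtracted, were named by Pearson r over 18192 other genes. For the receptors these were Alg2 (r = 0.782) and Map2k6 (0.734) for Acvr2a, Tgfb2 (0.810) and Fat3 (0.795) for Acvr2b, Pfkfb4 (0.753) and Tex261 (0.749) for Acvr1b, and Nup153 (0.871) and Phkb (0.842) for Tgfbr1. For the binding proteins they were Sertad4 (0.877) and Cdon (0.850) for Fst and Kat2a (0.923) and Hamp2 (0.885) for Fstl3. Inha was nearest to Atp1b2 (0.827) and Sema3a (0.794), Inhba to Hesx1 (0.756) and Ubxn10 (0.738), Inhbb to Gfap (0.833) and Card19 (0.797), and Gdf11 to 9530002B09Rik (0.765) and Kcnk4 (0.738). Among the members themselves Acvr2a correlated with Tgfbr1 (0.62) and Inha (0.61), and Fst most negatively with Acvr1b (-0.62). Pools share their tissue, array and genotype, so these values only describe likeness.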

How the data were processed

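Pooled RNA of each genotype and time point was measured on both MOE430 chips. The deposited values are log2 intensities that the authors computed with RMA in R/affy (version not given in the sources used here). RMA evens out arrays and tends to compress fold changes. No depth applies to intensities, and precision rests on 5 pools per genotype. Arrays were grouped by their titles, and the replicate number paired chip A with chip B of one pool. Control probe sets (64 on each chip) were left out, the 100 probe sets present on both chips were read from chip A, and 45037 probe sets were fitted at each time point with limma 3.58.1 (lmFit, eBayes; R 4.3.3; the data.table package, version 1.17.8), as WT minus MSTN-null, with Storey q (lambda 0.05 to 0.95 in steps of 0.05) below 0.05 as a call. Interactions came from a limma fit of all 30 pools. Bars and intervals are SD, SE or 95% confidence intervals. Scripts were tested on simulated data.

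Symbols come from the platform annotation (1 symbol for 34945 probe sets, several for 932, none for 9160; 34741 matched by gene ID). The members and the 5 pathway and 9 marker lists were chosen with earlier results of these data known. All member probe sets are reported, with pool values at d35 for the brightest of a gene and for those called or without overlap, and for all ages in the plots, up to 4 called pathway genes in each direction, and the 2 nearest genes of each member. Pathway genes that were not called (target genes at d35, Smads, type I receptors and Wfikkn proteins) were named after their values were seen. Alternatives covered the adjustment, each chip alone, dim probe sets (below percentile 25), quantile normalization, moderation, a single fit, replicate blocks, gene means and each pool left out in turn. Same-numbered pools did not deviate together in every pair at any time point, so the main fit has no block. Promoter sequences are from RefSeq, and figures were drawn with Python 3.11.15 and matplotlib 3.10.9.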

Additional observations from a re-analysis of the deposited data

Results flagged for a closer look

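Dixon's test, applied to the 114 groups of 5 pools (19 probe sets, each genotype and time point), found 9 with a pool far from the others, with the gap to the nearest pool divided by the range above the critical value for 5 pools; about 1 in 20 groups is picked out by chance. At 17.5 d.p.c. WT pool 1 stood apart in 4 of them: Acvr1b 1433725_at (0.843), Acvr2b 1440525_at (0.809), Fst 1434458_at (0.736) and Inhba 1458291_at (0.923). The last 3 lie on chip B, where the array of this pool correlated less with its group (0.948), and Acvr1b 1433725_at on chip A. MSTN-null pool 4 stood apart at 17.5 d.p.c. for Acvr1b 1433725_at (0.808) and at d35 for Acvr2a 1437382_at (0.724) and Fst 1434458_at (0.750), where it was the highest MSTN-null pool. The others were MSTN-null pool 2 at 13.5 d.p.c. for Acvr2b 1419140_at (0.725) and WT pool 2 at d35 for Acvr1b 1422098_at (0.833).

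The genotype difference varied between time points for 3 probe sets. Acvr2b 1439856_at had an interaction q of 0.0377 over the 3 time points and 0.0179 between 13.5 d.p.c. and d35 (limma). Acvr1b 1433725_at had 0.0449 over the 3 and 0.0264 between 17.5 d.p.c. and d35. Fst 1421365_at had 0.0478 between 17.5 d.p.c. and d35, which held in 10 of 36 alternatives, and did not pass over the 3 (0.076). Under Benjamini-Hochberg adjustment the test over the 3 time points called 0 of the 19 probe sets, with an unadjusted p below 0.05 for 7.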

How the results depend on the processing

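Inha and Fst 1421365_at were called at d35 in 18 of 18 alternatives and Acvr2a 1437382_at in 17, and no called difference changed sign. Acvr2b 1439856_at was called in 8 of 18 (q from 0.0261 to 0.137). Acvr2b 1419140_at was gained in 6 alternatives, Acvr1b 1433725_at in 3 and Fst 1434458_at in 1. Some differences that were not called changed sign. That of Acvr1b 1433725_at at 13.5 d.p.c. kept its sign in 9 of 17 alternatives and that of Gdf11 at d35 in 12 of 18. Others kept it throughout, such as Acvr2b 1419140_at at d35 (18 of 18). At d35 the count of 4 members ran from 3 to 6 with single pools left out, was 3 with Benjamini-Hochberg, and was 2 without WT pools 2 and 3, an alternative chosen after seeing the data. The 5 pathway genes became 2 with Benjamini-Hochberg and 2 to 6 with single pools left out. At 13.5 d.p.c. 1 member (Acvr2b 1439856_at) was called with limma trend and robust, and 0 to 1 with single pools left out. The 2 pathway genes became 1 with Benjamini-Hochberg or further quantile normalization, 0 in the single fit or with gene means, and 0 to 2 with single pools left out. At 17.5 d.p.c. members and pathway genes stayed at 0 in all alternatives, single pools included (0 to 0), also without WT pool 1 and MSTN-null pool 5, chosen after seeing the data. The 2 members whose difference varied over the time points became 0 with Benjamini-Hochberg, 1 with each chip on its own and 0 to 3 with single pools left out. The cause of these changes was not tested.

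Same-numbered pools correlated at -0.199 to 0.485, and 1, 3 and 1 of 5 pools at the 3 ages, from the youngest, were closest to their own number. At 17.5 d.p.c. the pairs 1, 3 and 5 correlated at 0.304, 0.388 and 0.485 and the pairs 2 and 4 at -0.199 and -0.071. The labels do not say that a number marks a shared batch, and not every pair deviated together, so the numbers were not taken as a pairing. With the replicate block, 4 members and 6 pathway genes were called at d35, with Acvr2b 1439856_at (q = 0.0509) and Smad7 (q = 0.0988) no longer called and Acvr2b 1419140_at (q = 0.0395) gained, 0 and 2 at 13.5 d.p.c., 0 and 0 at 17.5 d.p.c., and 1 member varied over the time points. Dim probe sets near the bacterial controls, such as Tgfbr1 1420894_at, carry little information.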
